A study of Mus musculus with 7 samples.

Results

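The genes described here are a module of 38 genes of DNA replication and cell division, read in the duodenum of mice given the LXR agonist T0901317 (T09) or vehicle. They were taken by gene symbol from the deposited gene table, where each of the 38 had 1 row among 47069, and all 38 were among the 14250 genes tested. They lie on 17 chromosomes. By role, 17 act in DNA replication, 19 act in mitosis or prepare for it, and 2 are cyclins of the G1 phase, the growth phase before DNA is copied. LXR, the liver X receptors, are nuclear receptors that sense oxysterols and switch on genes of sterol and lipid handling. The vehicle group was 4 male mice given 0.5% carboxymethylcellulose, and the T09 group was 3 male mice given 50 mg/kg of T09 per day, with 1 library per mouse as the labels read. All 7 mice were 8 to 12 weeks old and of the C57BL/6 strain in the sample labels (C57BL/6J in the series description). The labels give no transgene, and neither the duration of dosing nor the carrier of T09 is stated in them.

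Proliferation in the small intestine takes place in the crypts, where stem cells and their rapidly dividing daughters feed the villi above with new cells. Before S phase, licensing factors load the MCM helicase onto replication origins, and polymerases, the sliding clamp and enzymes that make deoxynucleotides then carry out DNA synthesis. Mitosis follows under cyclin B and CDK1, with Aurora and Polo kinases, the spindle checkpoint and motor proteins sorting the chromosomes. Replication genes are typically switched on through E2F sites in late G1 and S phase, and mitotic genes later, through the cell cycle genes homology region (CHR) and CCAAT boxes.

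In the 7 libraries, counts summed to between 15395535 and 20494485, and the lowest count of any member in any library was 22. Counts of 6 members that overlap another expressed gene (Ccna2, Ccnd1, Plk1, Kif20a, Mcm7 and Gins2) are uncertain, because strand handling by the authors is not known from these sources. The duodenal transcription factor genes Pdx1, Gata4, Cdx1, Cdx2 and Hnf4a had counts in every library. The treatment was visible in all 4 LXR target genes looked at (Abca1, Abcg1, Srebf1 and Mylip), whose summed level was 212 to 269 CPM (counts scaled to library size) in the vehicle and 1675 to 1770 CPM in the T09 libraries. All 4 were higher with T09 by edgeR's quasi-likelihood test (Benjamini-Hochberg adjusted p under 0.05), with log2 fold changes of 2.41 to 3.43. Smooth muscle marker genes set the groups apart as well, with 10 of 10 lower in T09 and a summed level of 395 to 657 CPM against 1377 to 2187 CPM in vehicle.

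No proliferation gene passed the test for a change with T09. By edgeR's quasi-likelihood test 0 of 38 passed an adjusted p under 0.05, while 4.31% of all genes tested did. DESeq2 and limma-voom also called 0 of the 38, against 1091 and 532 of all 14250 genes tested. At an unadjusted p under 0.05 there was 1 member, Cdk1, whereas 17.9% of all genes reached that level. Cdk1 was also the 1 member with groups that do not overlap, as found for 16.8% of all genes. The log2 fold change, T09 minus vehicle, was above 0 in 30 members and below 0 in 8, from -0.07 for Mcm5 to 0.73 for Ccne1. This split rests on single libraries: 17 of 38 were above 0 without vehicle replicate 1 and 38 of 38 without vehicle replicate 2. Its median was 0.12 over the members and 0.02 over all genes tested. The 95% interval of the change lay within 2-fold in both directions for 36 of the 38, all but Cenpe and Ccne1, and within 1.5-fold for 11. Of all 14250 genes tested, 10185 had an interval within 2-fold and 6464 within 1.5-fold. In whole-tissue RNA, fewer cells of a type and less RNA per cell cannot be told apart.

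**Figure D1:**
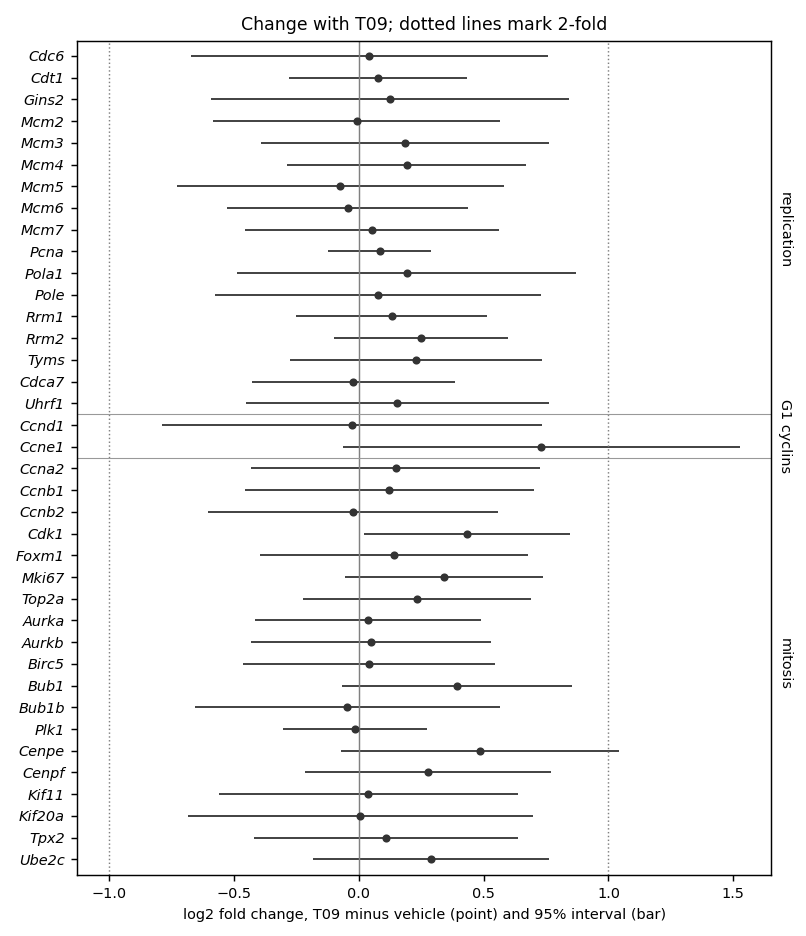
Log2 fold change, T09 minus vehicle (horizontal axis), of each of the 38 members, with points for the edgeR estimate and bars for its 95% interval; dotted lines mark 2-fold and horizontal lines separate replication genes, G1 cyclins and mitosis genes. The interval of Cdk1 alone stays above 0 (0.02 to 0.85), and those of Cenpe and Ccne1 cross the upper 2-fold line.

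The promoters of the members show the division between the replication and the mitosis genes at the level of sequence. RefSeq windows of 300 bases on GRCm38.p6, from 250 before to 50 after the annotated start, were found for 29 of the 38 members (31 windows). The E2F motif was searched as TTTCCCGC, TTTCGCGC, TTTGCCGC or TTTGGCGC, the CHR as TTTGAA or TTCGAA, and the CCAAT box as CCAAT, each on both strands. A gene counted as having a motif if any of its windows held a match. Mcm7 and Uhrf1, each with more than 1 window, had E2F matches in 1 window and none in the other. An E2F motif was in 9 of 14 replication members with a window (64.3%) and in 1 of 14 mitosis members (7.14%), against 2.6% of the 27025 genes in the promoter table. A CHR was in 11 of 14 mitosis members (78.6%) and 2 of 14 replication members (14.3%), against 21.7% of all genes. CCAAT was common in both, in 13 mitosis and 10 replication members, and in 41.1% of all genes. A CHR and a CCAAT together were found in 11 of 14 mitosis members and 9.65% of all genes. These matches describe the windows and were not tested against binding.

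**Figure D2:**
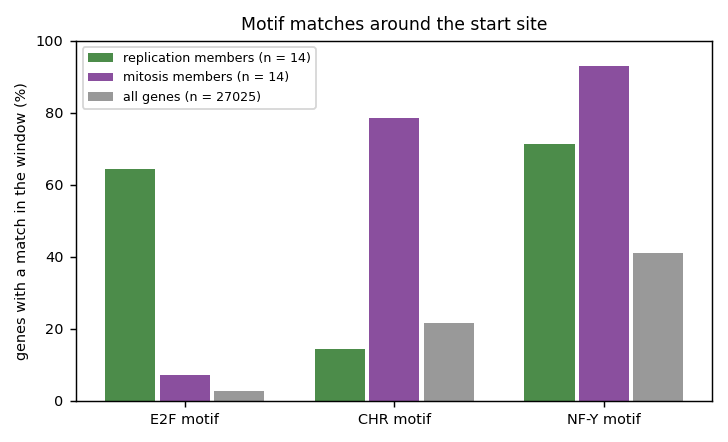
Percentage of genes with at least 1 match (vertical axis) to the E2F motif, the CHR or the CCAAT box (labelled by its binding factor NF-Y) in the promoter window, for replication members, mitosis members and all genes of the RefSeq table. The E2F bar is tall in the replication members (64.3%) and the CHR bar in the mitosis members (78.6%).

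The windows of 4 members are shown as examples of E2F, CHR and CCAAT matches: Mcm3 with E2F motifs and no CHR, Cdk1 with both, and Ube2c and Mki67 with CHR and CCAAT motifs and no E2F motif. Each reads 5′ to 3′ on the gene's strand, and capitals mark matches to the motifs on either strand. In Ube2c 1 pair of CCAAT matches overlaps, and none overlaps in the other windows. Mcm3 is read at chr1:20820263-20820562 (minus strand), Cdk1 at chr10:69352863-69353162 (minus strand), Ube2c at chr2:164769679-164769978 (plus strand) and Mki67 at chr7:135716330-135716629 (minus strand).
Mcm3: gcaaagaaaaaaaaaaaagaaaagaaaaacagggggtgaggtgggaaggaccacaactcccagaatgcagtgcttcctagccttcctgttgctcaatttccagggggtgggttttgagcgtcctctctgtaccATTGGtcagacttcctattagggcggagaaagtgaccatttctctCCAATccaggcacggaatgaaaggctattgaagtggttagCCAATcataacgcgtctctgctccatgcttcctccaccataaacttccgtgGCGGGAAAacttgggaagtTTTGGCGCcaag
Cdk1: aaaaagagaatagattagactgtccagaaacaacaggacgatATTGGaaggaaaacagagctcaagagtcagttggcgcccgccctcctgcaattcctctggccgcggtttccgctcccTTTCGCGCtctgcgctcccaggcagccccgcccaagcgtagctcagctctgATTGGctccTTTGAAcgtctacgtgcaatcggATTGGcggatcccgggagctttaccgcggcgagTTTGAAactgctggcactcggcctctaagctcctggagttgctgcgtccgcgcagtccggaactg
Ube2c: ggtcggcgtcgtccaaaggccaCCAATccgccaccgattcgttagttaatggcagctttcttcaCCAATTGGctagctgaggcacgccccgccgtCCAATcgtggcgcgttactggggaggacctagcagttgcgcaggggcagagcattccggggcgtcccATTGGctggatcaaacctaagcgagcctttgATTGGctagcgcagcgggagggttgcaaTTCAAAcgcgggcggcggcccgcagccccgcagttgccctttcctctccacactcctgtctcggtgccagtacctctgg
Mki67: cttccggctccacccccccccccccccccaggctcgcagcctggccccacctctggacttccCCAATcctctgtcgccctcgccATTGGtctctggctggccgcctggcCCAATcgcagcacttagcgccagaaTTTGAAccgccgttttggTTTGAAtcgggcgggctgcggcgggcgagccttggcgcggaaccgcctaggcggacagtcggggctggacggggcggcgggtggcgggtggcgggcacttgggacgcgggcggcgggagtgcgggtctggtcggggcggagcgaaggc
Mcm3 has 2 E2F matches, both in the last part of the window, and 3 CCAAT matches. Cdk1 has 1 E2F match, 2 CHR matches and 3 CCAAT matches. Among other genes of each process, a CHR was in 32 of 46 mitosis genes (69.6%) and in 8 of 34 replication genes (23.5%). An E2F motif was in 10 of 34 other replication genes (29.4%), a lower share than in the members, and in 5 of 46 other mitosis genes (10.9%).

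Among the replication members, licensing comes first. Cdc6 and Cdt1 encode the factors that load the MCM helicase, and Gins2 a subunit of the complex that activates it. Cdc6 stood at 2.39, 5.56, 4.71 and 3.66 CPM in vehicle replicates 1 to 4 and at 4.91, 4.75 and 2.90 CPM in T09 replicates 1 to 3. Vehicle replicate 1 and T09 replicate 3 were its lowest libraries, and the groups overlapped (log2 fold change 0.04, SE 0.32). Gins2 was at 2.33, 4.88, 5.16 and 2.59 CPM with vehicle and at 4.35, 4.36 and 3.49 CPM with T09 (log2 fold change 0.13, SE 0.32). Cdt1 varied less, between 18.8 and 23.5 CPM in vehicle and between 18.2 and 27.4 CPM in T09 (log2 fold change 0.08, SE 0.16). For Gins2 the T09 values all lay within the range of the vehicle values.

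The 6 subunits of the MCM helicase (Mcm2 to Mcm7), which unwinds DNA ahead of the fork, had log2 fold changes of -0.07 to 0.19, 3 above and 3 below 0 (edgeR adjusted p from 0.70 to 0.99). Mcm3 was at 8.35, 17.8, 17.4 and 12.7 CPM with vehicle and at 16.1, 18.9 and 13.0 CPM with T09 (log2 fold change 0.19, SE 0.26). Its values in vehicle replicates 2 and 3 were matched by T09 replicate 2, and vehicle replicate 1 was lowest. Mcm5 was at 11.3, 24.1, 24.1 and 16.6 CPM with vehicle and at 20.6, 21.8 and 11.8 CPM with T09 (log2 fold change -0.07, SE 0.29). T09 replicate 3 thus sat with the lowest vehicle library and the other two T09 libraries with the upper ones. Mean levels of Mcm6 were 31.0 ± 8.49 CPM (SD, n = 4) in vehicle mice and 30.0 ± 5.12 CPM (SD, n = 3) in T09 mice. In Mcm2, Mcm4 and Mcm7 the lowest of the 7 libraries was likewise vehicle replicate 1, at 9.96, 8.20 and 14.7 CPM.

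Pcna encodes the sliding clamp that holds the polymerases on DNA. It was at 96.4, 111.0, 112.1 and 101.4 CPM with vehicle and at 109.7, 118.1 and 106.9 CPM with T09, a log2 fold change of 0.08 (SE 0.09, 95% interval -0.12 to 0.29). The groups overlapped, and the highest vehicle library was 1.16 times the lowest, the smallest ratio of the 38 members. Pola1, the catalytic subunit of the primase-bound polymerase, and Pole, that of the leading-strand polymerase, had log2 fold changes of 0.19 (SE 0.30) and 0.08 (SE 0.29). Both were lowest in vehicle replicate 4, at 2.64 CPM each.

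Nucleotide supply is represented by Tyms, the enzyme that makes thymidylate, and by Rrm1 and Rrm2, the large and small subunits of ribonucleotide reductase. Rrm2 was at 12.0, 15.4, 15.3 and 12.9 CPM with vehicle and at 14.0, 16.6 and 19.1 CPM with T09, and its log2 fold change was 0.25 (SE 0.15, edgeR's adjusted p 0.46). T09 replicates 2 and 3 lay above every vehicle library and T09 replicate 1 among them. Tyms and Rrm1 had log2 fold changes of 0.23 (SE 0.22) and 0.13 (SE 0.17). Uhrf1, which carries DNA methylation over to the new strand, was at 10.4, 23.2, 21.4 and 14.2 CPM with vehicle and at 16.7, 23.9 and 17.1 CPM with T09 (log2 fold change 0.16, SE 0.27). Cdca7, a partner of the chromatin remodeller Hells, averaged 28.5 ± 5.83 CPM (SD, n = 4) and 28.1 ± 4.95 CPM (SD, n = 3).

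The cyclins of G1 had the widest spread between vehicle libraries. Ccne1, the cyclin that drives entry into S phase with Cdk2, was at 1.61, 3.15, 2.74 and 1.19 CPM with vehicle and at 3.07, 4.47 and 3.25 CPM with T09. T09 replicates 2 and 3 lay above every vehicle library, and T09 replicate 1 lay below vehicle replicate 2. Its log2 fold change was 0.73 (SE 0.35, 95% interval -0.06 to 1.52, edgeR's adjusted p 0.32), an interval that holds both no change and a 2-fold difference. Ccnd1, the growth-factor-responsive cyclin of early G1, was at 7.88, 16.1, 22.0 and 11.6 CPM with vehicle and at 18.2, 14.8 and 9.17 CPM with T09 (log2 fold change -0.03, SE 0.34). Its highest vehicle library was 2.79 times its lowest, the widest ratio of the 38 members. Ccnd1 is the member that overlaps Oraov1.

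The cyclins and kinase of S phase and mitosis include the member that came closest to a call. Cdk1, the kinase that starts mitosis (ENSMUSG00000019942, chr10:69336635-69352938, minus strand), was at 9.65, 16.8, 15.2 and 12.4 CPM with vehicle and at 17.7, 19 and 18.1 CPM with T09. All 3 T09 libraries lay above the highest vehicle library, replicate 2. The means were 13.5 ± 3.15 CPM (SD, n = 4) and 18.3 ± 0.66 CPM (SD, n = 3), a log2 fold change of 0.43 (SE 0.18, 95% interval 0.02 to 0.85, edgeR's adjusted p 0.26). Cdk1's partners did not share this separation. Ccnb1, a cyclin B, was at 9.13, 16.4, 14.8 and 10.4 CPM with vehicle and at 16.0, 16.1 and 9.23 CPM with T09 (log2 fold change 0.12, SE 0.26). Ccnb2, the other cyclin B, averaged 23.3 ± 7.63 CPM (SD, n = 4) in vehicle mice and 22.9 ± 4.73 CPM (SD, n = 3) in T09 mice. Ccna2, the cyclin of S phase and early mitosis, was at 11.3, 27.1, 23.6 and 16.8 CPM with vehicle and at 21.6, 23.1 and 20.7 CPM with T09 (log2 fold change 0.15, SE 0.26). Its T09 values all lay inside the vehicle range, and it overlaps the expressed gene Exosc9.

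Mki67 encodes Ki-67, the protein stained to mark dividing cells. It was at 28.3, 48.4, 34.8 and 31.3 CPM with vehicle and at 40.3, 45.3 and 49.95 CPM with T09, a log2 fold change of 0.34 (SE 0.18, edgeR's adjusted p 0.36). The T09 libraries lay above 3 of the vehicle libraries, and vehicle replicate 2 fell among them. Without that vehicle library the log2 fold change of Mki67 was 0.52 (edgeR's adjusted p 0.065, the smallest of its alternatives, which reached 0.76). Top2a, the topoisomerase that untangles sister chromosomes, was at 29.0, 52.7, 46.7 and 31.7 CPM with vehicle and at 47.4, 51.2 and 42.5 CPM with T09 (log2 fold change 0.23, SE 0.20). Foxm1, the transcription factor of mitotic genes, ranged from 5.66 to 8.39 CPM in vehicle and from 5.56 to 10.3 CPM in T09, and its T09 values spanned those of vehicle.

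Of the mitotic kinases, passenger proteins and checkpoint genes, Plk1 (Polo-like kinase) was at 21.1, 27.5, 27.2 and 27.3 CPM with vehicle and at 25.2, 27.6 and 23.7 CPM with T09. Vehicle replicate 1 stood below the 3 other vehicle libraries, which lay close together, and the log2 fold change was -0.02 (SE 0.13). Aurka and Aurkb, the Aurora kinases of the spindle poles and of the centromeres, had log2 fold changes of 0.04 (SE 0.20) and 0.05 (SE 0.21). Birc5 (survivin), which anchors Aurora B, was at 15.7, 25.4, 31.0 and 19.6 CPM with vehicle and at 20.5, 21.9 and 28.3 CPM with T09 (log2 fold change 0.04, SE 0.22). Its T09 values all fell inside the vehicle range. Bub1, a kinase of the spindle checkpoint, was at 3.42, 4.46, 3.63 and 3.45 CPM with vehicle and at 5.62, 4.25 and 4.85 CPM with T09 (log2 fold change 0.39, SE 0.21, edgeR's adjusted p 0.37). T09 replicate 2 was below vehicle replicate 2, and the other two T09 libraries were above all vehicle libraries. For its relative Bub1b, the checkpoint protein BubR1, the change was -0.05 (SE 0.27) on the log2 scale.

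In all 5 kinetochore and spindle genes the groups overlapped. Cenpe, a motor that lines chromosomes up at the spindle equator, was at 4.77, 9.03, 7.13 and 5.07 CPM with vehicle and at 7.56, 9.11 and 10.6 CPM with T09. T09 replicate 1 lay below vehicle replicate 2, and T09 replicates 2 and 3 lay above every vehicle library. Its log2 fold change was 0.49 (SE 0.25, 95% interval -0.07 to 1.04, edgeR's adjusted p 0.35). For Cenpf, a large kinetochore protein, the log2 change was 0.28 (SE 0.22), and the spindle motor Kif11 and the spindle assembly factor Tpx2 had 0.04 (SE 0.27) and 0.11 (SE 0.24). Kif20a, a motor of the central spindle, was lowest of all libraries in T09 replicate 3, at 2.84 CPM against 5.43 and 5.96 CPM in the other T09 libraries. Ube2c, the ubiquitin-conjugating enzyme that works with the anaphase-promoting complex, was at 18.5, 35.8, 36.1 and 28.7 CPM with vehicle and at 35.6, 33.4 and 40.3 CPM with T09 (log2 fold change 0.29, SE 0.21). It was lowest in vehicle replicate 1 and highest in T09 replicate 3.

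**Figure D3:**
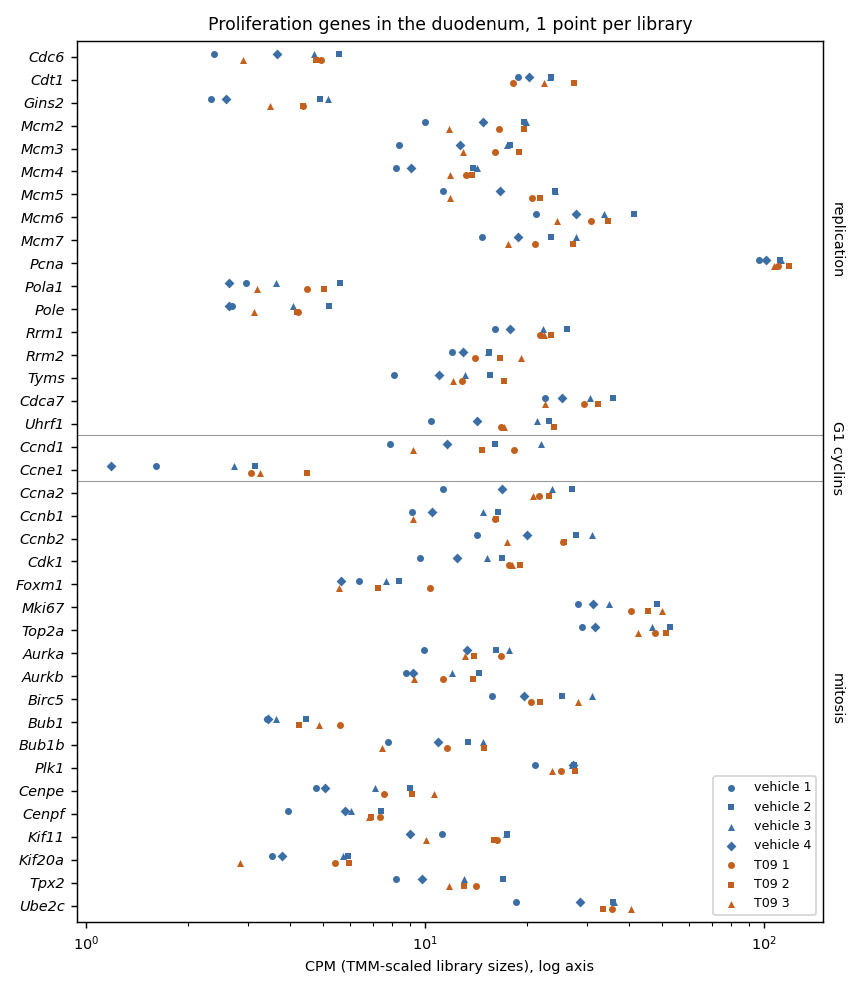
CPM of each member (log axis) in each of the 7 libraries, vehicle in blue and T09 in orange, with the marker shape giving the replicate. Vehicle replicate 1 lies at the left of most rows, and only in Cdk1 do the orange points all lie to the right of the blue ones.

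Replication genes were set against mitosis genes within each library. The mean log2 CPM of the 17 replication members minus that of the 19 mitosis members was 0.01, 0.05, 0.05 and 0.03 in vehicle replicates 1 to 4 and -0.08, 0.10 and -0.08 in T09 replicates 1 to 3. T09 replicate 2 lay above the vehicle values and the other two T09 libraries below them. The mean was 0.04 ± 0.02 (SD, n = 4) with vehicle and -0.02 ± 0.10 (SD, n = 3) with T09, a difference of -0.06 that is smaller than the spread between the T09 libraries. The median log2 fold change was 0.08 for replication members (13 above 0, 4 below) and 0.12 for mitosis members (16 above, 3 below). The order of these medians turned without vehicle replicate 1 (-0.02 and -0.04), without vehicle replicate 2 (0.271 and 0.268), without vehicle replicate 4 (0.05 and 0.04) and without T09 replicate 1 (0.10 and 0.06). The difference of -0.06 was -0.118 without T09 replicate 2, -0.0268 without T09 replicate 1 and -0.0292 without T09 replicate 3. No test was made of these summaries over the members.

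The members differed together between the vehicle mice. Summed over the 38 members, the level was 503, 822, 783 and 601 CPM in vehicle replicates 1 to 4 and 736, 801 and 671 CPM in T09 replicates 1 to 3. The T09 libraries thus all fell inside the vehicle range, with means of 677 ± 151 CPM (SD, n = 4) for vehicle and 736 ± 65.0 CPM (SD, n = 3) for T09. Vehicle replicate 1 was the lowest of the 7 libraries in 30 of the 38 members, a place it took in 20.8% of the 9000 tested genes with a mean CPM in the members' range. Vehicle replicate 2 was the highest of the 7 in 14 members, and T09 replicate 2 in 10. In 37 of the 38 members, all but Plk1, both vehicle replicates 1 and 4 lay below both replicates 2 and 3, an order seen in 19.8% of genes of that range. It held in 17 of 17 replication and 18 of 19 mitosis members. This order was picked out after the values were seen, so it is given as a description. The highest vehicle library was 1.89 times the lowest in the median member, and 1.35 times in the median gene of the same range. In the T09 group the same ratios were 1.41 and 1.26.

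**Figure D4:**
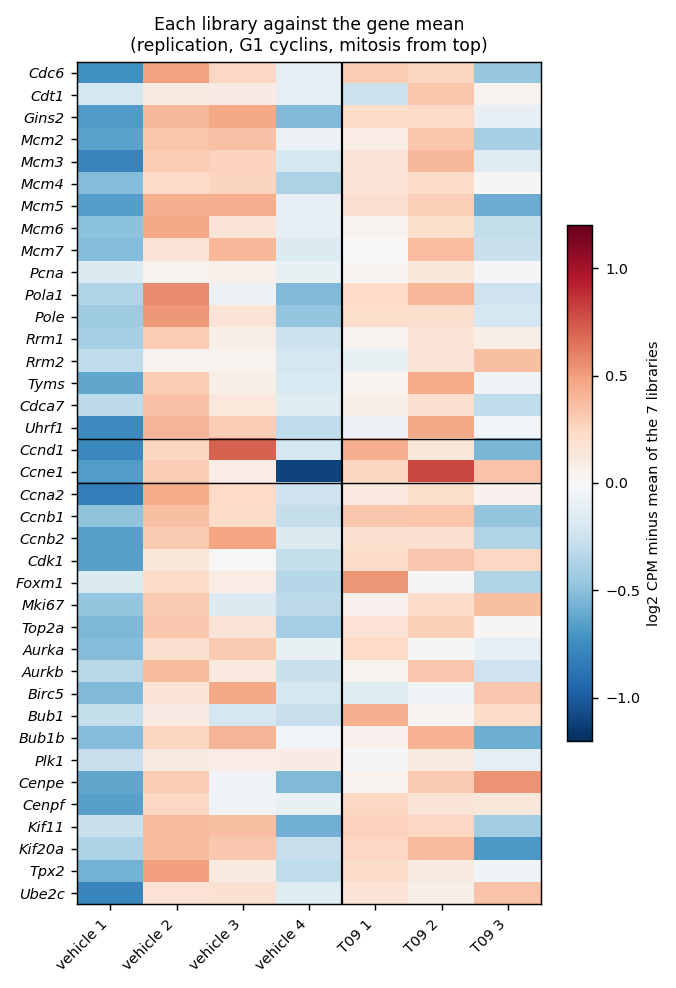
Log2 CPM of each member minus its mean over the 7 libraries (colour scale), with members in rows and libraries in columns; the vertical line separates vehicle from T09. The column of vehicle replicate 1 is blue in all rows and those of vehicle replicates 2 and 3 mostly red, in the replication genes at the top as in the mitosis genes at the bottom.

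Within the T09 group, replicate 3 went both ways. T09 replicate 3 was the lowest T09 library in 27 members and the highest in 5, which were Mki67, Cenpe, Rrm2, Birc5 and Ube2c. Among genes of like level, 36.0% had it lowest and 37.6% highest. Ccnb1, Ccnd1, Mcm5, Bub1b and Kif20a had the lowest ratios there, at 0.57, 0.56, 0.56, 0.56 and 0.50 times the mean of the other two T09 libraries.

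Other genes of the same processes, from lists that share no gene with the members, gave a like result. By edgeR's quasi-likelihood test 0 of 39 other replication genes, 0 of 53 other mitosis genes, 0 of 24 regulators of G1 and S phase entry and 0 of 10 CDK inhibitor genes passed an adjusted p under 0.05. Unadjusted p under 0.05 was reached by 2, 3, 3 and 1 of them. DESeq2 called 1 gene of these lists and limma-voom none, against 1091 and 532 of all 14250 genes tested. That gene was Cdk2, the partner of cyclin E, at 8.82, 11.1, 9.36 and 9.48 CPM with vehicle and at 14.1, 12.3 and 15.2 CPM with T09. All 3 T09 values lay above the vehicle values, and the log2 fold change was 0.52 (SE 0.14, edgeR's adjusted p 0.083, DESeq2 adjusted p 0.029).

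Besides Cdk2, the genes with the smallest or next smallest p of each list were the following, none called by edgeR. For Mcm10, which helps start the fork, the log2 fold change was 0.43 (SE 0.16, adjusted p 0.19), and for the thymidine kinase gene Tk1 it was 0.48 (SE 0.19, adjusted p 0.21). For Kif2c, a microtubule-depolymerising motor, it was 0.55 (SE 0.18, adjusted p 0.13), and for Cdca8, a passenger protein, 0.46 (SE 0.20, adjusted p 0.26). Ccne2, the other cyclin E gene, was opposite in sign to Ccne1, at -0.62 (SE 0.25, adjusted p 0.24) on the same scale. The inhibitor genes Cdkn1a (p21) and Cdkn1b (p27) had -0.31 (SE 0.12, adjusted p 0.22) and -0.21 (SE 0.09, adjusted p 0.28). The order of the vehicle libraries described above was found in 51 of 53 other mitosis genes, 24 of 39 other replication genes, 11 of 24 regulators of G1 and S phase entry and 3 of 10 CDK inhibitor genes. The low place of T09 replicate 3 was less shared. It was the lowest T09 library in 11 of the 39 other replication genes and the highest in 17. In the 53 other mitosis genes it was lowest in 24 and highest in 16.

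Markers of crypt cells moved with the members between libraries in part. The summed level of 9 crypt stem cell genes, led by Olfm4, was 163, 271, 240 and 203 CPM in vehicle replicates 1 to 4 and 222, 219 and 100.3 CPM in T09 replicates 1 to 3. Like the members, they were lowest among vehicle libraries in replicate 1 and lowest among T09 libraries in replicate 3. The order of the vehicle libraries seen in the members held in 5 of the 9. None of the 9 was called (1 had an unadjusted p under 0.05, and DESeq2 and limma-voom called 0), and all 9 had log2 fold changes below 0. This direction leans on 1 library, as T09 replicate 3 was the lowest T09 library in all 9. Its sum lay below the vehicle range, while the sums of T09 replicates 1 and 2 lay within it. The 7 Paneth cell genes, which mark the crypt base, summed to 595, 2319, 2983 and 2360 CPM with vehicle and to 1036, 3308 and 192 CPM with T09. The vehicle order of the members held in 3 of the 7. The Paneth sum of T09 replicate 3 lay below the vehicle range and that of T09 replicate 2 above it. In T09 replicate 1 both the Paneth sum and the proliferation level lay within the vehicle range.

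Lists of other cell types had other patterns. Villus enterocyte genes summed to between 45202 and 49279 CPM in all libraries, and 1 of 12 kept the vehicle order of the members. Of these 12 genes edgeR called 1, Fabp2, a fatty acid binding protein gene, higher with T09 (log2 fold change 0.81, SE 0.17, edgeR's adjusted p 0.033). DESeq2 called 2 of the 12, Fabp2 and Lct, and limma-voom called 1, Fabp2. Lct was lower with T09 (log2 fold change -0.41, SE 0.13, DESeq2 adjusted p 0.037). Of the 12 log2 fold changes 4 were above 0 and 8 below, the lowest that of Ada at -1.29 (SE 0.38, edgeR's adjusted p 0.10). The 8 epithelial genes summed to 12914 to 14533 CPM with vehicle and 10748 to 11500 CPM with T09, with 0 called by edgeR or limma-voom, 2 by DESeq2 and 6 at an unadjusted p under 0.05. The sum of B and plasma cell genes was highest in T09 replicate 1, at 746 CPM against 81.5 to 361 CPM in the other libraries. Most of it was Jchain, at 710 CPM there. Macrophage and dendritic cell genes were also highest in T09 replicate 1, at 241 CPM in sum against 43.7 to 118 CPM. T and NK cell genes summed to between 118 and 559 CPM in the vehicle libraries. The part of crypt, muscle and immune cell content in the member values was not tested. With both vehicle replicate 1 and T09 replicate 3 left out, 0 members were called by edgeR and 0 had an unadjusted p under 0.05. Only 101 of the 14380 genes tested were called in that setting, so 0 calls say little about the members.

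**Figure D5:**
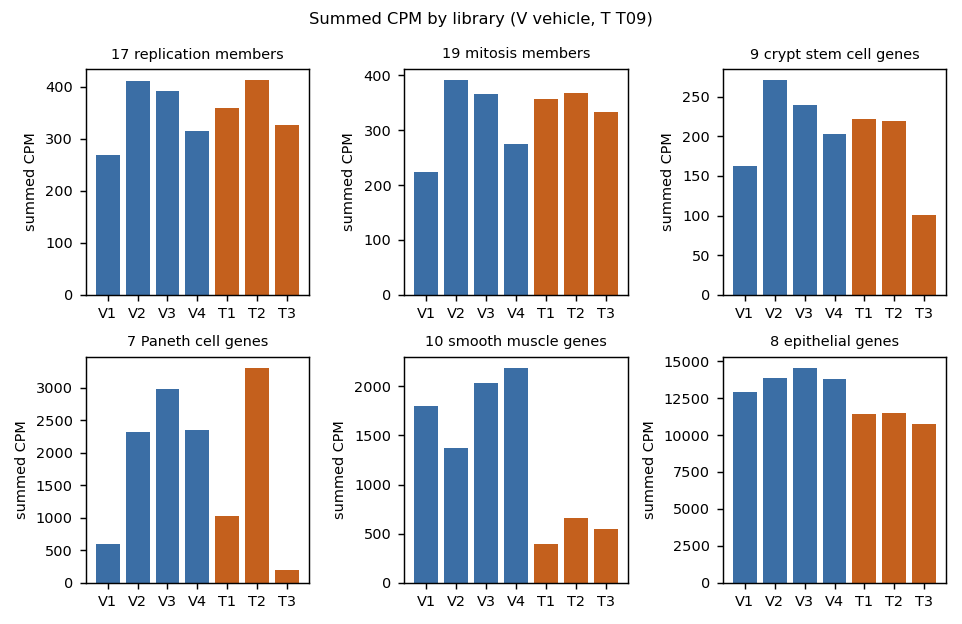
Summed CPM (vertical axes, each from 0) of replication members, mitosis members and 4 lists of cell type markers in each library, V1 to V4 for vehicle and T1 to T3 for T09 replicates. Replication and mitosis bars are shorter in V1 and V4 than in V2 and V3, and the Paneth bars are shortest in T3, V1 and T1, at 192, 595 and 1036 CPM.

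Per unit of length, in the authors' deposited FPKM, the members spanned a wide range of levels in vehicle. Pcna was the highest at 118 ± 8.61 FPKM (SD, n = 4), followed by Cdca7 at 29.5 ± 5.95 FPKM and Top2a at 23.9 ± 6.84 FPKM. These SDs are spreads between mice and do not compare genes within a library, so the order of Cdca7 and Top2a was not tested. Cdc6, Pole and Kif20a were the lowest, at 1.30 ± 0.44, 1.32 ± 0.44 and 1.35 ± 0.36 FPKM, and their order was not tested either. Mki67 held 35.7 CPM in the mean of the vehicle libraries but 3.58 ± 0.88 FPKM. The deposited FPKM equalled count divided by listed length and column total within 1% for 8 of the 38 members, so the length behind most of these values is not known. Cdk1, at 13.6 ± 3.14 FPKM with vehicle and 17.7 ± 0.86 FPKM with T09, had rank 9 of the 38 in vehicle on this scale.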

How the data were processed

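Polyadenylated RNA from 7 mouse duodena was sequenced with randomly primed libraries, per the labels' protocols. Tools named, without roles, in the submitters' processing notes were HTSeq 0.6.1, TopHat2 2.0.12, DESeq 1.18.0 and Bowtie2 2.2.3. Genome build, annotation and strand handling were not given in the sources used here; 31 of the 38 members have exactly the GENCODE M21 (GRCm38) coordinates. The authors deposited raw counts of reads by gene and, per the file headers, FPKM made by the authors. Counts were tested here in R 4.3.3 with edgeR 4.0.16 (filterByExpr by group, TMM, glmQLFit, glmQLFTest), adjusted by Benjamini-Hochberg over 14250 genes and called under 0.05. CPM uses TMM-scaled library sizes, mean log2 CPM a prior count of 2, and the standard error (SE) is the log2 fold change over the square root of F. FPKM served only for levels between genes. Members and lists were chosen with earlier results of these data known. All 38 members are named, and of other pathway lists the called genes or else the 2 smallest p. Alternatives were DESeq2 1.42.0, limma-voom (limma 3.58.1), other scalings and filters, a replicate block and leaving out libraries. Promoter windows are from RefSeq (GRCm38.p6). The fits were tested on simulated data. No column lacked a sample. P-values set the difference between T09 and vehicle against the spread between these libraries.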

Additional observations from a re-analysis of the deposited data

Results flagged for a closer look

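Plk1, the Polo-like kinase gene, was at 21.1 CPM in vehicle replicate 1, apart from the other vehicle libraries at 27.2 to 27.5 CPM. The gap to the nearest library, relative to the range of the 4 values, was above Dixon's critical value. It was the 1 set of vehicle values set apart among 56 looked at, and chance sets apart about 1 in 20 such sets. Plk1 is also the member in which vehicle replicate 4 did not lie below replicates 2 and 3 together.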

How the results depend on the processing

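No choice of processing brought a proliferation gene to a call: of 570 member values under 15 alternatives 0 were called. Of these 78 had the opposite sign to the reported value, in 23 members whose changes lie near 0, and the cause was not tested. Genes called over the whole table were 614 with the reported settings, 1091 with DESeq2, 280 with the replicate number as a block, 251 to 819 with 1 library dropped at a time, and 101 without both vehicle replicate 1 and T09 replicate 3, a setting chosen after the data were seen. Other pathway genes called were 1 with DESeq2 and 0 under the remaining alternatives. The median log2 fold changes were below 0 without vehicle replicate 1 (-0.02 for replication and -0.04 for mitosis members), against 0.08 and 0.12 with all libraries, and above 0 under the others. With 1 library dropped at a time they went from -0.02 to 0.27 for replication and from -0.04 to 0.27 for mitosis members. The difference between replication and mitosis members in mean log2 CPM, -0.06 with all libraries, ran from -0.118 without T09 replicate 2 to -0.0268 without T09 replicate 1. Taken with the median over members in each library in place of the mean, it was -0.119. The order of the median log2 fold changes of replication and mitosis members also turned with the replicate block (0.044 and 0.036). Scaling by library size alone moved the median of all genes from 0.02 to -0.03. Same-numbered libraries had correlations of deviations of 0.21, 0.11 and -0.0046. Vehicle replicates 1 and 2 each correlated best with the same-numbered T09 library, and vehicle replicate 3 with T09 replicate 2 (0.14). Such weak correlations cannot decide whether the numbers pair the mice, and the numbers were treated as names. The block called 280 genes and 0 members, and the same 6 libraries without it 285 genes.

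Log2 fold changes with the sign turned were, with library size alone, Birc5 -0.013, Aurka -0.0039, Kif20a -0.0296; with no filter, Kif20a -0.00057. With limma-voom they were Ccnb2 0.036, Ccnd1 0.059, Mcm2 0.031. With the replicate block they were Aurkb -0.023, Plk1 0.018, Kif11 -0.12, Kif20a -0.11, Pole -0.021. Without both vehicle replicate 1 and T09 replicate 3 they were Ccna2 -0.0017, Ccnd1 0.0075, Birc5 -0.25, Aurka -0.023, Bub1b 0.033, Mcm2 0.0023, Cdca7 0.0204. Over the fits that leave out 1 library each, the members whose sign turned ranged in log2 fold change as follows: Aurka -0.10 to 0.15, Aurkb -0.11 to 0.20, Birc5 -0.11 to 0.22, Bub1b -0.29 to 0.18, Ccna2 -0.044 to 0.34, Ccnb1 -0.0054 to 0.34, Ccnb2 -0.20 to 0.14, Ccnd1 -0.26 to 0.25, Cdc6 -0.15 to 0.25, Cdca7 -0.13 to 0.11, Cdt1 -0.081 to 0.22, Foxm1 -0.13 to 0.33, Gins2 -0.044 to 0.31, Kif11 -0.12 to 0.23, Kif20a -0.19 to 0.27, Mcm2 -0.18 to 0.17, Mcm5 -0.26 to 0.16, Mcm6 -0.19 to 0.12, Mcm7 -0.13 to 0.21, Plk1 -0.10 to 0.037, Pole -0.053 to 0.30, Tpx2 -0.036 to 0.32, Uhrf1 -0.031 to 0.33.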
